A study of Mus musculus with 24 samples.

Results

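The genes described here are 37 antiviral effectors, sensors and transcription factors that type I interferon switches on, measured in the liver of young mice fed glucose with or without galactose. They were taken as a list by name, and a gene was represented by its brightest non-control probe, chosen on the mean Cy5 signal over all 24 arrays. All 37 were on the array, among 37074 gene names, and 36 of them were among the 18649 genes bright enough to be tested. The study asked how partial replacement of glucose by galactose in the diet after weaning affects the liver. C57BL/6JRcc mice, an inbred laboratory strain, all labelled female and 3 weeks old at the start, were housed singly and fed for 3 weeks, with 16% of energy from fat, 20% from protein, 32% from starch and 32% from monosaccharides. The monosaccharide was glucose alone in 12 mice (GLU) or glucose and galactose in equal amounts in 12 others (GLU+GAL). Mice were killed at 6 weeks of age, on postnatal day 42, without food and in the light phase, and RNA came from the right lobe of the liver. No mouse carried an allele or other treatment that the labels name. Cy5-labelled RNA of single mice was hybridised against a Cy3-labelled pool of all mice, so every value below is a log2 ratio of 1 mouse over the pool. The dyes were not swapped, so the distance of a ratio from 0 can hold dye bias, and the comparisons below are between mice for the same probe.

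Type I interferons are secreted when a cell senses viral nucleic acid, and they act through the receptor chains Ifnar1 and Ifnar2. Receptor signalling brings Stat2 and Irf9 into a transcription complex, ISGF3, which binds the interferon-stimulated response element in promoters and raises the transcription of many genes at once. The products detect viral RNA, block its translation, degrade it or trap new virions, and a few of them, such as Irf7 and Usp18, feed back on the pathway. Liver holds the hepatocytes that make up most of its mass and resident macrophages, the Kupffer cells, and both can respond to interferon.

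Promoter windows of 7 members are shown first, since the response element is the sequence through which ISGF3 acts. The sequences are those of RefSeq on build GRCm38.p6, 5′ to 3′ on the strand of the gene, all before the transcript start, and capitals mark matches to the core of the response element, searched as GAAA, any 2 bases, GAAA, or on the other strand as TTTC, any 2 bases, TTTC, overlapping matches included. Windows were cut only for members with a match before the start. Of those, Isg15 and Stat2 are printed because their values are described in full below. Stat2 was one of the members that followed the others less closely. Ifit1, Ifit3 and Rsad2 are printed because they were closely correlated, and Oas1a and Oas1g because the pair is near-identical. Irf7, Irf9, Cmpk2, Xaf1, Ifi44 and Trim25, also described in full, had promoter entries without a match, so none of theirs is shown. The windows are chr4:156200850-156200909 (minus strand), chr10:128270251-128270310 (plus), chr19:34640779-34640838 (plus), chr19:34583382-34583441 (plus), chr12:26456538-26456597 (minus), chr5:120907526-120907564 (minus) and chr5:120887614-120887650 (minus).
Isg15: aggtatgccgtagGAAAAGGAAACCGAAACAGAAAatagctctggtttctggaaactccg
Stat2: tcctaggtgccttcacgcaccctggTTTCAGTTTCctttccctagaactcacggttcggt
Ifit1: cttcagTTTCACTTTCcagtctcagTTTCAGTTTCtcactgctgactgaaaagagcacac
Ifit3: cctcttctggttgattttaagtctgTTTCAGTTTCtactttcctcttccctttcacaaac
Rsad2: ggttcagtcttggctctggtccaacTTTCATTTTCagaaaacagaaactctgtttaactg
Oas1a: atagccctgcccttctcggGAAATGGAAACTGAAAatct
Oas1g: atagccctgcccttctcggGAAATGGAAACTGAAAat
The Oas1g window is identical to the first 37 bases of the Oas1a window. In Isg15 the 3 overlapping matches form 1 run of G-A-A-A repeats whose last match ends 56 bases before the start. Over promoters from 250 bases before to 50 after the start, 13 of the 26 members with a promoter entry held the core (50%), against 1079 of 27025 genes (3.99%). The correlation with the other members across mice had a median of 0.676 over the 12 measured members with the core and 0.669 over 13 without it. A match describes letters in the window and not a binding site.

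Cy5 signal was well above background on 44.2 to 49.2% of probes per array. In the Cy3 channel, where all arrays carried the same pool, the array of GLU+GAL 4 was least like the others (median r 0.972). That of GLU+GAL 5 was the next lowest (0.991). The array of GLU+GAL 12, labelled female like the rest, was the only one with the Y-linked genes Eif2s3y and Ddx3y above background and with Xist not above it. Without GLU+GAL 4 and GLU+GAL 12 together, an alternative chosen after seeing the data, 34 of 36 members still had the lower mean in GLU+GAL. An unadjusted limma p under 0.05 was found for 4, as with both arrays included. The shares over all genes in that fit are not given here, so these counts stand without a background. The arrays came on 3 slides with 4 mice per diet on each, so slide and diet could be separated. Hepatocyte markers were above background on all arrays for all 8 genes listed, among them Alb (albumin) and Apoa1.

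Most members were expressed in these livers without any infection named in the labels. Of the 37, 33 were above background on all 24 arrays. Oas1g was above background in 12 GLU and 11 GLU+GAL mice, Herc6 in 12 and 6, and Mx1, a dynamin-like GTPase that in many laboratory strains is truncated, in 9 and 7. Oas3, the largest oligoadenylate synthetase, was above background in 1 mouse of each diet and was not tested. The interferon genes themselves differed in whether the array detected them. Ifnb1 and Ifna4 were not above background on any array, Ifna2 was so in 1 GLU+GAL mouse and Ifng in 1 GLU mouse. Ifna1 was above background on 9 arrays and Ifnl3, a type III interferon, on all 24, with differences of 0.10 and -0.09 (unadjusted limma p = 0.0964 and 0.309). Both receptor chains, Ifnar1 and Ifnar2, were measured on all 24.

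Members tended to have the lower mean in GLU+GAL, by less than the SD within diets for all but Cmpk2, Rtp4 and Irf9. Those differed by -0.34 (SD 0.29), -0.34 (SD 0.33) and -0.14 (SD 0.13). The mean was lower in GLU+GAL for 34 of the 36 measured members (94.4%), against 49.2% of all genes tested. On Agilent's processed signals these were 33 members and 32.7% of all genes. Their median difference, GLU+GAL minus GLU, was -0.13 on the log2 scale, against 0.0013 over all genes, and single members ran from -0.34 to 0.03. No member passed the adjusted threshold of 0.05 in limma with Benjamini-Hochberg adjustment, and no gene of the 18649 did (background 0%), the lowest adjusted p of any gene being 0.523. At an unadjusted p under 0.05 there were 4 of 36 members (11.1%), all lower in GLU+GAL, against 496 genes lower (2.66%) and 307 higher (1.65%) of all tested, or 4.31% in both directions. The members were correlated with each other, so these counts are not counts of independent genes. The expression of a tissue sample cannot tell fewer cells of a type from less RNA per cell.

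**Figure D1:**
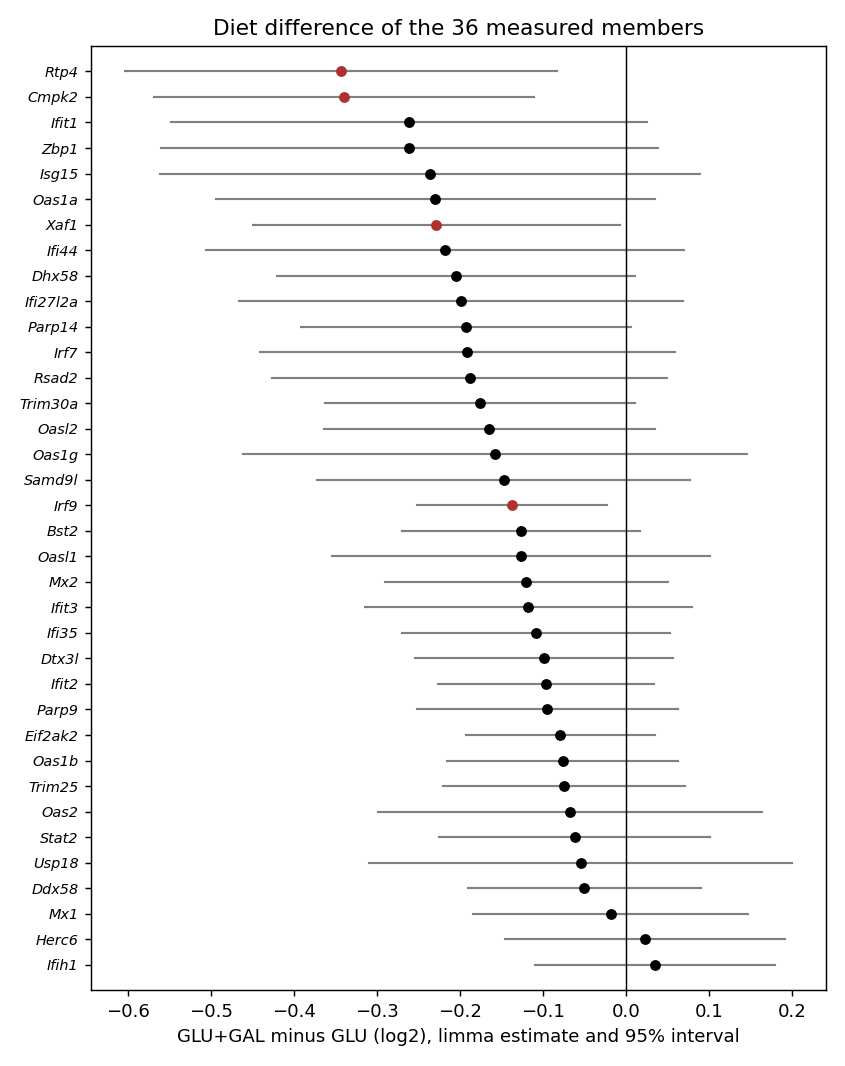
Diet difference of each of the 36 measured members, GLU+GAL minus GLU in log2 units on the horizontal axis, as the limma estimate (point) and its 95% interval (line) over 12 mice per diet; red points have an unadjusted p under 0.05. The points of 34 members lie left of 0, and all but 4 intervals include 0.

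Irf7, Irf9 and Stat2, the members that drive transcription, all had the lower mean in GLU+GAL. Irf9 is the DNA-binding subunit of ISGF3. Its log2 ratio ran from -0.05 over a median of 0.09 to 0.40 in GLU and from -0.20 over a median of -0.03 to 0.27 in GLU+GAL. Of the GLU+GAL mice, 11 of 12 lay below the GLU mean and 5 below the lowest GLU mouse, with overlap otherwise and GLU+GAL 2 the highest of its diet. The difference was -0.14 ± 0.06 (SE; unadjusted p = 0.020, adjusted p = 0.999, limma with Benjamini-Hochberg), a 1.10-fold lower mean. A second probe of Irf9 gave -0.20 with an unadjusted p of 0.0059. The unadjusted p of the first probe was above 0.05 on Agilent's processed signals (0.174), with median centring (0.0954), in Cy5 alone (0.236) and in the authors' deposited values (0.115).

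Irf7 amplifies the response by inducing further interferon genes. Its ratios ran from -0.59 over -0.30 to 0.38 in GLU and from -0.98 over -0.49 to -0.02 in GLU+GAL. The 2 highest mice, GLU 11 and GLU 3, were of the GLU diet and 3 GLU+GAL mice lay below every GLU mouse, while the others overlapped. The difference of -0.19 had a 95% interval from -0.44 to 0.06 (unadjusted limma p = 0.127). Stat2, the transactivating subunit of ISGF3, differed less, by -0.06 with an interval from -0.22 to 0.10 (unadjusted limma p = 0.443). The Stat2 ratios spanned -0.25 to 0.27 around a median of -0.08 in GLU and -0.52 to 0.33 around -0.18 in GLU+GAL. No GLU mouse lay above all GLU+GAL mice, and a second Stat2 probe had the opposite sign, 0.10.

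Sensors of viral nucleic acid were Ifih1 (MDA5), Ddx58 (RIG-I), Dhx58 (LGP2), Zbp1, which binds left-handed nucleic acid, and Trim25, the ubiquitin ligase that activates RIG-I. The mean was lower in GLU+GAL for 4 of these 5, with differences from -0.26 for Zbp1 to 0.03 for Ifih1 and no unadjusted p under 0.0622. A second probe of Zbp1, named here after its value was seen, gave -0.40 with an unadjusted p of 0.0325. Trim25 stood apart from the other members in how little it followed them across mice (r -0.05). Its ratios were all above 0, an offset that can hold dye bias. They ran from 0.57 over 0.79 to 1.22 in 11 GLU mice and from 0.42 over 0.79 to 1.00 in 12 GLU+GAL mice. The medians of the diets were equal at this rounding and the ranges overlapped. One GLU value of Trim25 was left out of the fit because its spot was marked as an outlier, and the difference was -0.07 ± 0.07 (SE; unadjusted limma p = 0.303). It took the other sign on processed signals (0.02), with median centring (0.03) and in the authors' deposited values (0.0058).

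Genes of families whose products block translation or lead to RNA breakdown also had lower mean RNA ratios, with no unadjusted limma p under 0.0720. The IFIT proteins bind foreign RNA at its 5′ end and Eif2ak2 (PKR) phosphorylates a translation initiation factor, and all 4 of Ifit1, Ifit2, Ifit3 and Eif2ak2 had the lower mean in GLU+GAL, by -0.26 to -0.08. Active oligoadenylate synthetases make the messenger that activates RNase L. The measured 6 of 7 genes in the family had differences from -0.23 (Oas1a) to -0.07 (Oas2). Whether each of them encodes an active enzyme was not tested. Oas1a and Oas1g are near-identical paralogs, so a probe of either may bind transcripts of both. Oas1b, in which many laboratory strains carry a truncation, ran from -0.20 over 0.17 to 0.37 in GLU and from -0.23 over 0.10 to 0.25 in GLU+GAL. The diets overlapped over nearly the whole range, and the Oas1b difference was -0.08 ± 0.07 (SE; unadjusted limma p = 0.271).

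Mx1 and Mx2 belong to a family of GTPases that block incoming viral nucleocapsids. Whether their products work in these mice was not tested. Mx2 ran from -0.09 over 0.05 to 0.27 in GLU and from -0.40 over -0.12 to 0.48 in GLU+GAL, a difference of -0.12 ± 0.08 (SE; unadjusted limma p = 0.159). Here 7 GLU+GAL mice lay below every GLU mouse, but the highest mice were also GLU+GAL, so the spread was wider in that diet (SD 0.28 against 0.12). Mx1 ran from -0.47 over -0.11 to 0.08 in GLU and from -0.38 over -0.22 to 0.47 in GLU+GAL. GLU+GAL 4, whose pool channel was least like the others, was the highest for Mx1. The Mx1 difference was -0.02, with a 95% interval from -0.18 to 0.15, and it changed sign when 1 of 3 single mice was left out.

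Isg15 is a ubiquitin-like protein that is attached to newly made proteins, Herc6 is the ligase that attaches it in mice and Usp18 removes it and also dampens the receptor. Isg15 had the widest spread within diets of all members, an SD of 0.42. It ran from -0.59 over -0.05 to 0.76 in GLU and from -0.67 over -0.34 to 0.65 in GLU+GAL. High mice occurred in both diets, GLU 11 in one and GLU+GAL 2 in the other, and only 1 GLU+GAL mouse lay below the GLU range. The difference was -0.24 ± 0.16 (SE; 95% interval -0.56 to 0.09, unadjusted limma p = 0.147). Usp18 differed by -0.05 and Herc6 by 0.02, which with Ifih1 was one of the 2 members with the higher mean in GLU+GAL. The ADP-ribosylation genes Parp9 and Parp14 and their ubiquitin ligase partner Dtx3l had differences from -0.19 to -0.10.

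Cmpk2, a mitochondrial nucleotide kinase, had the smallest unadjusted p of all members and next to the largest difference. Its ratio ran from -0.56 over -0.17 to 0.46 in GLU and from -0.85 over -0.47 to 0.17 in GLU+GAL. All but 1 of the GLU+GAL mice, GLU+GAL 2, lay below the GLU mean, and 4 lay below the lowest GLU mouse. The difference was -0.34 ± 0.11 (SE; unadjusted p = 0.0051, adjusted p = 0.985, limma with Benjamini-Hochberg), a 1.27-fold lower mean. It had the same sign on each slide, at -0.19, -0.30 and -0.53. Rsad2 (viperin), the neighbour of Cmpk2 on chromosome 12, whose product makes a chain-terminating nucleotide, differed by -0.19 (unadjusted limma p = 0.115).

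Among the remaining effectors, all 8 had the lower mean in GLU+GAL, by -0.34 to -0.11, and Rtp4 and Xaf1 had an unadjusted p under 0.05. Rtp4 is a chaperone of receptor transport that is also induced by interferon. It ran from -0.87 over -0.38 to 0.37 in GLU and from -1.09 over -0.65 to -0.18 in GLU+GAL. The 4 highest mice were all GLU and the 3 lowest all GLU+GAL, with overlap between. The Rtp4 difference was -0.34 ± 0.13 (SE; unadjusted p = 0.0117, adjusted p = 0.999, limma with Benjamini-Hochberg), but it was -0.69 on slide 2 and -0.04 on slide 1.

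Xaf1, a pro-apoptotic antagonist of the inhibitor protein XIAP, ran from -0.53 over -0.07 to 0.51 in GLU and from -0.79 over -0.24 to 0.12 in GLU+GAL. In 10 of 12 GLU+GAL mice it lay below the GLU mean, and 2 GLU mice lay above every GLU+GAL mouse. The difference was -0.23 ± 0.11 (SE; unadjusted p = 0.0429, adjusted p = 0.999, limma with Benjamini-Hochberg). The unadjusted p of Xaf1 exceeded 0.05 without any single one of GLU 3, 4, 5, 6, 10, 11 and 12 or GLU+GAL 6, 7, 8, 9 and 10, up to 0.0915 without GLU 11. It was also above 0.05 on processed signals (0.0768), without background subtraction (0.0514), with quantile normalisation (0.0606), in Cy5 alone (0.110) and in the authors' deposited values (0.0617). Ifi44, a cytoplasmic protein of the same response, ran from -0.54 over -0.29 to 0.55 in GLU and from -1.03 over -0.44 to 0.16 in GLU+GAL. Here 5 GLU+GAL mice lay below all GLU mice, and the difference was -0.22 ± 0.14 (SE; unadjusted limma p = 0.132).

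**Figure D2:**
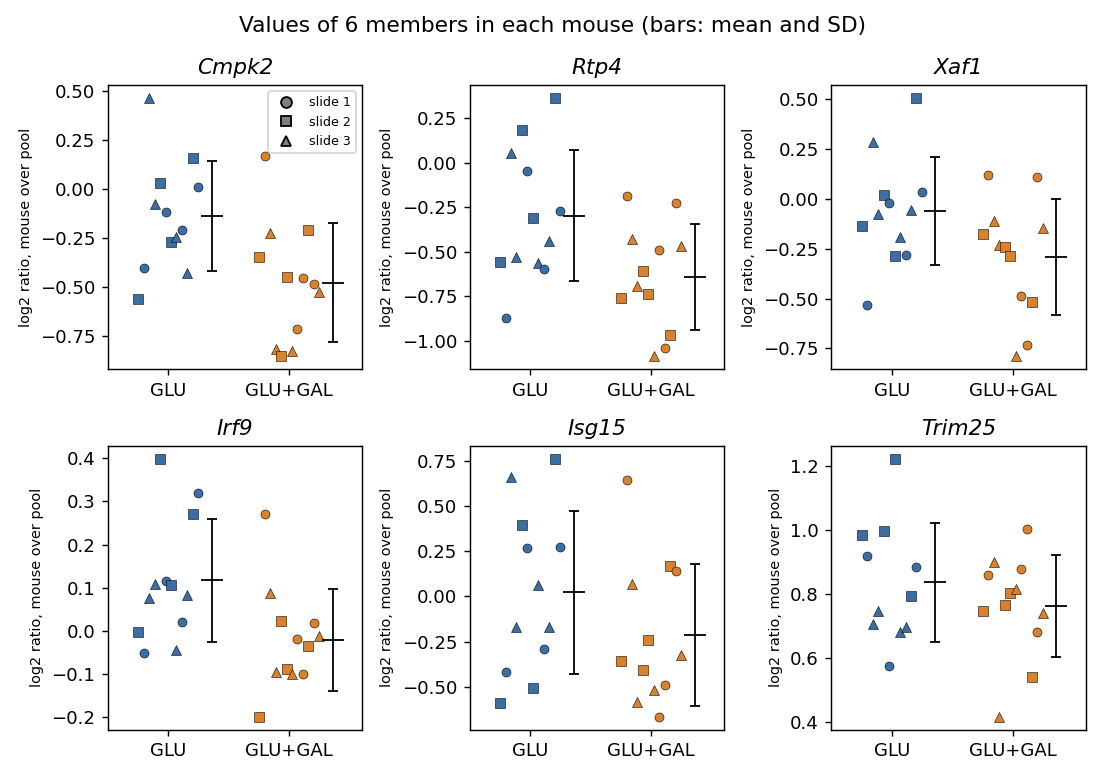
Log2 ratio of mouse over pool for Cmpk2, Rtp4, Xaf1, Irf9, Isg15 and Trim25 in each mouse (points; the shape gives the slide) by diet, with the mean and SD over 12 mice per diet (11 GLU mice for Trim25). The GLU+GAL means lie lower in all 6 panels, for Trim25 with a sign that turned under other normalisations, and the points of the diets overlap in each.

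The members' differences varied between the 3 slides. Within slide 1 the mean was lower in GLU+GAL for 19 of 36 members (all genes 51.8%), within slide 2 for 35 (all genes 54.7%) and within slide 3 for 30 (all genes 42.2%). The members' median difference was -0.0028, -0.26 and -0.16 in turn, and 18 of the 36 were lower on each of the 3 slides. Furthest in the other direction on slide 1 were Oas2 (0.30), Ddx58 (0.18) and Dtx3l (0.17). A test of the slide-by-diet interaction, added after seeing the data, gave an unadjusted limma p under 0.05 for 5 members (Parp14, Oas1b, Ddx58, Dtx3l and Oas2), against 8.46% of all genes. None passed after Benjamini-Hochberg adjustment, the lowest member being Parp14 at an adjusted p of 0.199.

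**Figure D3:**
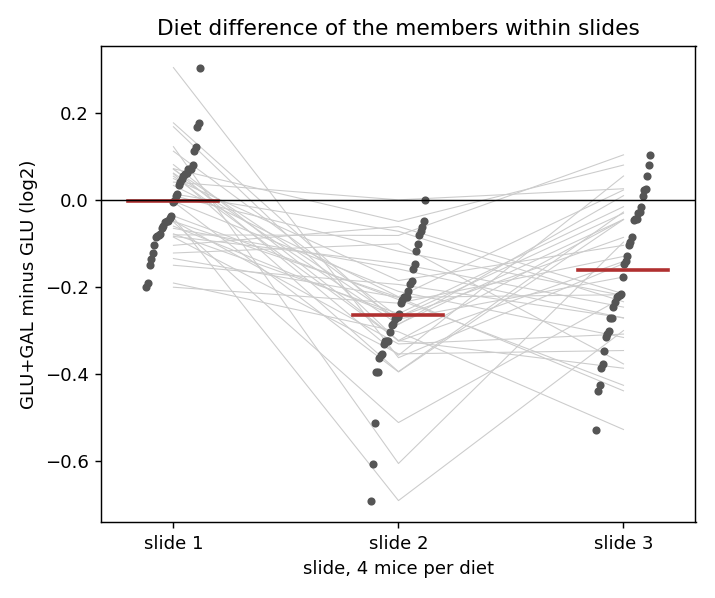
Diet difference (GLU+GAL minus GLU, log2) of each of the 36 measured members within each slide of 4 mice per diet; points are members, grey lines join a member across slides and red bars are medians. The medians lie at -0.0028, -0.26 and -0.16.

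The members varied together from mouse to mouse, by more than the diets differed. The mean over the 36 measured members was -0.05 ± 0.18 in GLU (SD, n = 12; -0.29 to 0.29) and -0.19 ± 0.16 in GLU+GAL (SD, n = 12; -0.39 to 0.13). The difference of -0.14 is smaller than either SD. It was 0.0050, -0.26 and -0.17 within the slides and -0.11 without GLU 11, the highest mouse. Below the GLU mean lay 9 of 12 GLU+GAL mice and also 8 of 12 GLU mice. The highest mice were GLU 11 at 0.29, GLU 3 at 0.22, GLU 5 at 0.17 and GLU+GAL 2 at 0.13. Of the 36 members, 27 had their highest value in 1 of these 4. The 4 mice were picked by the mean of the same members, so that count was partly fixed in advance. GLU+GAL 9, 5, 7 and 4 were the lowest, and 22 members had their lowest value in 1 of them, a count partly fixed in the same way. No share over all genes is given beside either count. GLU+GAL 4 and GLU+GAL 5 had the arrays least like the others in the pool channel (median r 0.972 and 0.991), while GLU+GAL 9 and GLU+GAL 7 were at 0.997. The part of array quality in these low values was not tested.

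**Figure D4:**
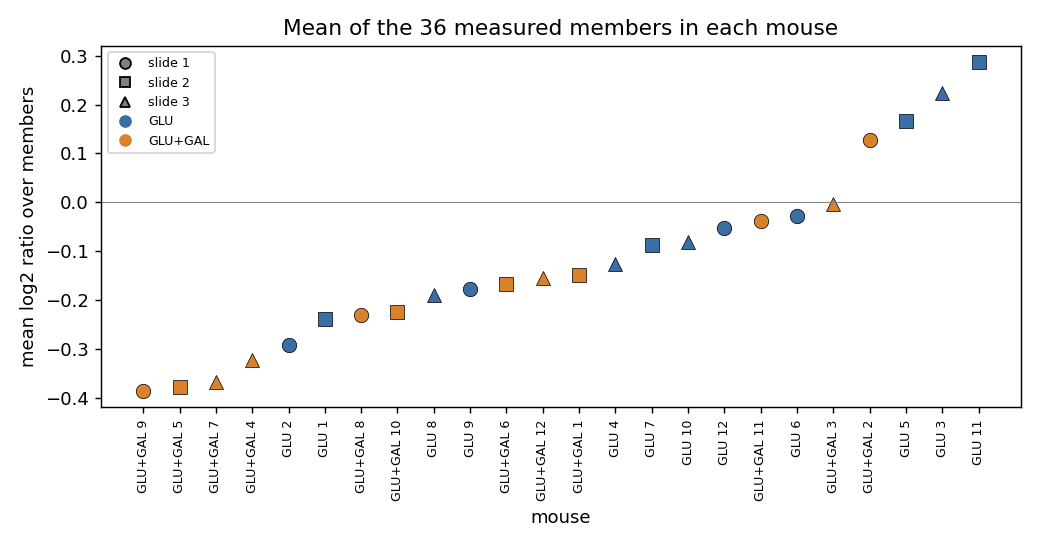
Mean log2 ratio over the 36 measured members in each of the 24 mice, ordered from low to high; colour gives the diet and shape the slide. The 4 lowest mice are all GLU+GAL, 3 of the 4 highest are GLU, and the diets are mixed between.

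After the mean of each diet was subtracted, the 630 pairs of measured members had a median Pearson r of 0.40 over the 24 mice, against 0.0085 for pairs of all genes, and 36.8% of pairs exceeded 0.5, against 4.74% of all. The mice share 3 slides, 1 pool and 1 normalisation per array, and with slide means also subtracted the median r was 0.43. The closest pair was Ifi27l2a and Oas1a at 0.95, then Oasl1 and Ifit1 at 0.92 and Irf7 and Xaf1 at 0.89. The transcription factors were less close to each other, with 0.41 for Irf9 and Stat2, 0.33 for Irf7 and Irf9 and 0.22 for Irf7 and Stat2. Isg15 followed its deconjugase Usp18 at 0.68, and the RNA sensors Ifih1 and Dhx58 were at 0.80. Mx1 and Mx2 had an r of -0.00091.

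Members also differed in how closely each tracked the mean of the others. This r had a median of 0.67 and was above 0.5 for 26 of 36 members. It was highest for Rtp4 (0.87), Ifi44 (0.86), Isg15 (0.83) and Xaf1 (0.82), and lowest for Trim25 (-0.05), Oas1b (0.12), Mx1 (0.18) and Mx2 (0.34). The first 4 lie lower in GLU+GAL by 0.22 to 0.34 on the log2 scale and the last 4 by 0.02 to 0.12, Trim25 with a sign that turned under other normalisations. The last 4 were also the only members whose chosen probe was not matched to the symbol by RefSeq accession. Whether probe identity has a part in their low r was not tested. Of the 53 pairs with an r below 0, 45 included Trim25, Oas1b or Mx1, and the lowest was Trim25 and Ifit2 at -0.46. Within diets the members also varied more than most genes, with a median SD of 0.25 against 0.17 for all genes, and 16 of 36 lay above the 90th percentile of all genes.

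**Figure D5:**
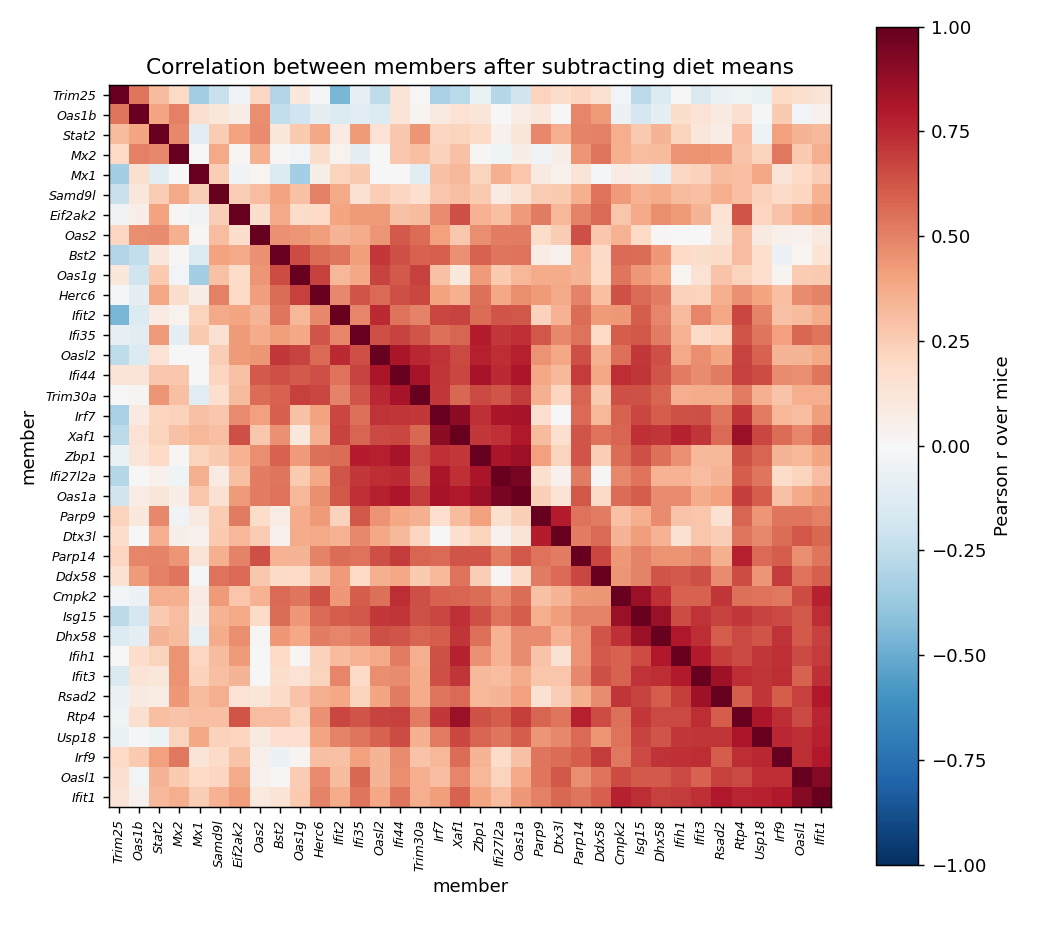
Pearson correlation between the 36 measured members over 24 mice after subtracting diet means; both axes list members in the order of a clustering, and colour runs from -1 (blue) to 1 (red). Most cells are red, with r above 0.5 in 232 of 630 pairs, and the rows of Trim25, Oas1b, Stat2, Mx2 and Mx1 at the top are pale.

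Neighbouring members on a chromosome were not always the closest. Dtx3l and Parp9, which lie next to each other on chromosome 16, had an r of 0.78 and Rsad2 and Cmpk2 an r of 0.72, but Ifit2 and Ifit3 had 0.49, Oasl1 and Oasl2 had 0.34 and Oas1a and Oas1g had 0.33. Outside the list, the 10 genes closest to the mean of the members were Uba7 (r 0.88), Gbp3 (0.86), Fpr2 (0.84), Psmb10 (0.83), Ifi47 (0.83), Tgtp2 (0.82), Irgm1 (0.82), Cxcl10 (0.81), Cxcl9 (0.81) and Nmi (0.80), over the same 24 mice. Uba7 is the activating enzyme for Isg15, Psmb10 an immunoproteasome subunit, and Cxcl9 and Cxcl10 are chemokines that interferons induce.

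Upstream of the members, 30 of 37 listed signalling genes were measured. The mean was lower in GLU+GAL for 24 (all genes 49.2%), with a median difference of -0.04. At an unadjusted limma p under 0.05, 4 were lower, against 2.66% of all genes, and none was higher. They were Ptpn6 (-0.19), a phosphatase, Irf5 (-0.27), Ifngr1 (-0.16), a chain of the interferon gamma receptor, and Irf1 (-0.20). The receptor chains Ifnar1 and Ifnar2 both differed by -0.03 and had r values of 0.02 and -0.20 with the member mean.

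Other interferon-induced genes, many of them targets of interferon gamma, showed the same direction. Of 51 measured, 49 had the lower mean in GLU+GAL (all genes 49.2%), with a median of -0.15. An unadjusted limma p under 0.05 was found for 16, all lower, against 2.66% of all genes. They included the immunity-related GTPases Igtp (-0.62), Ifi47 (-0.47), Irgm2 (-0.42) and Iigp1 (-0.41) and the guanylate-binding proteins Gbp6 (-0.45), Gbp7 (-0.42) and Gbp2 (-0.32). The chemokine Cxcl10 (-0.43) and the membrane protein Ifitm3 (-0.20) were also among them. GLU 11 was the highest mouse for all of those named except Cxcl10. For Igtp it was at 1.96, against medians of 0.02 in GLU and -0.40 in GLU+GAL. Differences of these genes without GLU 11 are not given here. None of the upstream or other interferon-induced genes passed the adjusted threshold in limma, the lowest adjusted p among them being 0.744, for Ifitm3.

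Markers of Kupffer cells lay in the same direction as the members. Of 15 Kupffer genes, 14 had the lower mean in GLU+GAL, against 49.2% of all genes. At an unadjusted limma p under 0.05, 6 were lower, against 2.66% of all genes, among them Marco (-0.54), Clec4f (-0.22) and C1qc (-0.23). The mean of the list was 0.14 ± 0.24 in GLU and -0.05 ± 0.24 in GLU+GAL (SD, n = 12 each), highest in GLU 11 like the members, and its summed Cy5 signal ran from 47408 to 83533 in GLU and from 38688 to 68198 in GLU+GAL. Over the 15 genes the r with the member mean ran from -0.11 (Slc40a1) to 0.69 (Marco), with Cd163 at -0.09, Folr2 at 0.25 and Clec4f at 0.48. The part of these cells in the members' difference was not tested. Hepatocyte markers had the lower mean for 6 of 8, against the same 49.2% of all genes. An unadjusted limma p under 0.05 was found for Alb (-0.17), Apoa1 (-0.22), Hnf4a (-0.16) and Fgb (-0.26), against 2.66% of all genes lower. Over all 8 the r with the member mean ran from -0.34 (Cyp2e1, and Ttr at -0.34) to 0.23 (Apoa1).

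Markers of other cell types that make or answer interferon were also compared. Of all genes, 49.2% had the lower mean in GLU+GAL and 2.66% were lower at an unadjusted limma p under 0.05. Markers of plasmacytoid dendritic cells, specialised producers of type I interferon, had the lower mean for 2 of 5 measured, with a median of 0.0044, and Runx2 was not above background on any array. T and NK cell markers were lower for 8 of 9, with Cd4 at an unadjusted limma p under 0.05, and Cd8a and Ncr1 were not above background on any array. B cell markers were lower for 4 of 4 and neutrophil markers for 3 of 5, of which Ly6g (-0.23) had an unadjusted limma p under 0.05. The summed Cy5 signal of the T and NK list ran from 29588 to 65169 in GLU and from 21775 to 41482 in GLU+GAL, that of the B cell list from 1044 to 1482 and from 899 to 1353, and their part in the members' difference was not tested.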

How the data were processed

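Liver RNA of 24 mice was measured on Agilent 2-colour arrays, 1 per mouse. The submitters' processing notes name Agilent Feature Extraction 10.7.3.1 as the scanner software. The deposited scanner files hold mean signal, local background and processed signal as intensity values in both channels, per the file headers, and the log10 ratio deposited by the authors was not used. A table of log2 values deposited by the authors (29287 rows, each column with a median of 8.6) followed the Cy5 signal of its own array best for 24 of 24 columns. Its scaling and choice of rows are not given in the sources used here.

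Mean signals were background-corrected by normexp with an offset of 50 and normalised by loess within arrays (controls had weight 0). The tools were R 4.3.3, data.table (version 1.17.8) and limma 3.58.1. Flagged outlier spots were left out and spots of a probe were averaged. The brightest of all its probes stood for a gene. Of 56605 probes, 26675 had well-above-background Cy5 signal in 6 or more mice of either diet. A gene entered the fit only where its brightest probe was among these. A separate fit over all probes past this filter gave the values of second probes. Probe names are those of the array design. Of the 37 chosen member probes, 33 were matched to the member's symbol by RefSeq accession, all but Mx1, Mx2, Oas1b and Trim25. Diets were compared over all 24 mice with lmFit and eBayes, 2-sided, with Benjamini-Hochberg adjustment over 18649 genes. The number of arrays limits the precision. The steps were tested on simulated data.

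The members and gene lists were chosen with earlier results of these data known. Members named in full were those at an unadjusted p under 0.05, the transcription factors, the 4 most and 4 least correlated with the mean of the others, and any not above background, and the other members are given by range. Values of 1 gene outside the member list are not reported here. Correlations between same-numbered mice of the diets had a median of 0.16 and ran from -0.38 to 0.52. The labels do not say that the numbers pair the mice, and no pairing was used. Alternatives covered the signal, background, normalisation, filter, probe rule, slide and replicate blocks, variance model, array weights, each slide alone and each mouse left out. Plots were drawn with matplotlib 3.10.9.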

Additional observations from a re-analysis of the deposited data

How the results depend on the processing

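No gene and no member passed the adjusted threshold in limma under any alternative, except that 1 gene, not a member, did without GLU 3, so that with single mice left out the count ran from 0 to 1. Members with the lower mean in GLU+GAL numbered 33 to 35 of 36 over other settings (32 of 33 with the filter on all 24 arrays, 35 of 37 with no filter) and 33 to 35 with single mice left out, but 19 within slide 1. On processed signals 33 of 36 were lower, against 32.7% of all genes in place of 49.2%, with the median gene at 0.04. The count of members at an unadjusted p under 0.05, 4 in all, was 2 on processed signals, 2 in the authors' deposited table, and 0, 11 and 2 within slides 1, 2 and 3. With single mice left out it ran from 3 to 11, with 7 without GLU 1, GLU 2 or GLU+GAL 1, 9 without GLU+GAL 3 and 11 without GLU+GAL 2. The share of all genes at that limma p was 4.31% in the main fit. It was 5.23% on processed signals, 4.29% in the authors' deposited table and 6.81% within slide 1. Shares for slides 2 and 3 and for single mice left out are not given here, so those counts of members stand without a background. With the replicate number as a block the count of members was 12, and the share of all genes was 6.02%. Whether the numbers pair the mice is not stated in the labels. The same-number correlations ran from -0.38 to 0.52, with 8 of 12 over 0.1, and 2 of 12 mice were closest to their own number. No call at the adjusted threshold changed under this block. The difference of the member mean ran from -0.17 to -0.11 with single mice left out and was 0.0050 within slide 1. The median pairwise correlation ran from 0.364 to 0.443 with single mice left out and from 0.348 (authors' table) to 0.425 (slide means subtracted) over other settings.

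Among the members named in full, the difference took the other sign for Trim25 on processed signals (0.019), with median centring (0.035), in the authors' table (0.0058) and within slides 1 (0.062) and 3 (0.010). Stat2 did so as the mean of its probes (0.021) and within slide 1 (0.11). Within slide 1 so did Ifi44 (0.055), Oas1b (0.072) and Mx2 (0.061), and within slide 3 Oas1b (0.056) and Mx1 (0.10). Members not named in full also did so within slide 1, by up to 0.30 (Oas2), and Usp18 within slide 3 (0.023). With single mice left out Mx1 ran from -0.076 to 0.0016, and was 0.0016 without GLU 6 or GLU+GAL 11 and 0.00011 without GLU 11. The causes were not tested. For Mx1, Herc6 and Oas1g, signal was not above background on every array, which limits their ratios.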

Other observations

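Members with a second probe past the brightness filter allow a check within a gene. There were 17 such probes, of which 13 gave the same sign of the diet difference as the probe used and 4 the opposite one, those of Dtx3l, Parp14, Stat2 and Trim30a. Of the 2 further Trim25 probes, neither followed the members, with r values of 0.17 and 0.01. Markers of structural liver cells showed no common direction between diets: 3 of 6 endothelial, 3 of 5 stellate and 1 of 2 measured cholangiocyte genes had the lower mean in GLU+GAL, and none of these had an unadjusted limma p under 0.05.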
